A study of Mus musculus with 12 samples.

Results

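The 8 genes described here are a panel of genes that glucocorticoid hormone acts through or on: the receptor gene Nr3c1 and its target genes Fkbp5, Tsc22d3, Klf9, Sgk1, Dusp1, Zfp36 and Ddit4. They were chosen by symbol, with the knowledge that Fkbp5 differed between Vdr knockout and wild-type cells over both ages. They are 8 of 23413 genes in an RNA-seq count table of alveolar macrophages, which patrol the air sacs of the lung and were washed out of mouse lungs by lavage. There were 12 libraries, with 2 in each of 6 groups. Fresh cells were from VDR knockout mice at 10 weeks, wild-type (WT) mice at 10 weeks, VDR knockout mice at 4 weeks and WT mice at 4 weeks of age. WT cells were also cultured for 24 h in complete medium, either with 50 nM vitamin D3 or with no agent, and the age of the mice that gave them is not stated. VDR is the vitamin D receptor, a transcription factor of the same nuclear receptor family as Nr3c1. The strain, the design of the knockout allele and the cells a library pooled are not given in the labels used here.

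Glucocorticoids (corticosterone in mice) enter cells freely and bind the glucocorticoid receptor, which is held in the cytoplasm by heat shock protein chaperones. The bound receptor moves to the nucleus, where it activates genes through its binding elements and restrains inflammatory transcription. In macrophages it induces proteins that dampen inflammatory signalling, and Fkbp5 closes a negative loop by lowering the hormone affinity of the receptor complex.

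The sequences just upstream of 4 of these genes are shown, of which 3 hold motifs named below and 1 holds none. They are the 250 bases before an annotated start, on the strand of the gene, from RefSeq on build GRCm38.p6. Sgk1 has several such starts, and the window shown is the only one of them with the palindrome named below. Capitals mark every match to a motif searched, and in the Sgk1 window an E-box overlaps a half-site. Sgk1 is shown for its full palindromic glucocorticoid response element, Dusp1 for its cyclic AMP response element, Fkbp5 as the gene the panel was built around, and Klf9 as the member that differed with vitamin D3, in whose window no motif was found.
Sgk1, chr10:21993640-21993889, plus strand: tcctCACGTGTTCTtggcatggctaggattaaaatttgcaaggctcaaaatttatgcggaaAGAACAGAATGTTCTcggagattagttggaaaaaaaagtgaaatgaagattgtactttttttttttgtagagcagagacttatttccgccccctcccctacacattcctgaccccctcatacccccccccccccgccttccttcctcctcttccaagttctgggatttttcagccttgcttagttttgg
Dusp1, chr17:26508473-26508722, minus strand: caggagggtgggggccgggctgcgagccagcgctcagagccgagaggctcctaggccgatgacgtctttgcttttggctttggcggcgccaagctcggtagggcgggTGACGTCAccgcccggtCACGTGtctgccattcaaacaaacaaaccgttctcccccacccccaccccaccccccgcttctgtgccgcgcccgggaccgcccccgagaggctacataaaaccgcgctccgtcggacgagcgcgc
Fkbp5, chr17:28486150-28486399, minus strand: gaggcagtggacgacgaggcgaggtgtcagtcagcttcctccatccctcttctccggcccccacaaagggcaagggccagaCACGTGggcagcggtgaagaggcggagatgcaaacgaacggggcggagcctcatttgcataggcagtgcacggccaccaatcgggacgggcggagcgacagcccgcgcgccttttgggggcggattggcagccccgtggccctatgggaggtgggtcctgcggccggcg
Klf9, chr19:23140976-23141225, plus strand: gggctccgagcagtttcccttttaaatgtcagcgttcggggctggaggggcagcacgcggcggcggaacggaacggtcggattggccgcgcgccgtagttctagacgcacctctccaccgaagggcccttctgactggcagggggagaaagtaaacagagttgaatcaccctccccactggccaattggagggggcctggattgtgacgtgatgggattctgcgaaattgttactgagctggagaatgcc
These 4 genes were among 7 of the 8 members with upstream windows in the RefSeq table, 14 windows in all. The palindrome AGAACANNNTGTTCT was in 1 window of Sgk1, 189 to 175 bases upstream, and in 3 of 32851 windows of all genes (0.00913%). The half-site AGAACA, searched on both strands and also found inside the palindrome, was in windows of Sgk1 and Tsc22d3 and in 16.1% of all windows. The cyclic AMP element TGACGTCA lay 143 to 136 bases upstream of Dusp1 and was in 1.55% of all windows. The E-box CACGTG was in the printed windows of Sgk1, Dusp1 and Fkbp5 and in 6.02% of all windows. A vitamin D response element spelled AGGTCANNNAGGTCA, with each repeat also read as AGTTCA, was in 4 of 32851 windows (0.0122%) and in no window of a member. A match is a description of letters, and no match says only that these letters are not in the window.

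Total counts ranged from 10409572 to 23233674 per library, so 1 count was worth 0.0904 CPM or less (CPM is the count relative to the library's size, scaled here by TMM, the trimmed mean scaling of edgeR). Whether the libraries of a group were made from different animals is not labelled. Where that is unknown, p-values measure only how far libraries spread, part of which may be technical. In replicate 2 of both genotypes at 10 weeks Xist was at 787.3 to 800.3 CPM, and elsewhere under 1 CPM. The 10-week replicates of a genotype thus differed in sex and came from different animals. Vdr was at 84.2 and 45 CPM in the 10-week knockout-labelled libraries, against 79.6 and 126.9 CPM in 10-week WT. In 4-week cells it stood at 45.9 and 31.3 CPM in the knockout-labelled libraries, against 56.5 and 57.7 CPM in WT. The 10-week knockout-labelled replicate 1 thus held as much Vdr as WT, and the removed part of the gene is not given. The description codes of that library and of 10-week WT replicate 2 name the other genotype, but the columns of the deposited log2 table named for each genotype hold the libraries whose genotype label says so. Genotype labels were therefore used. For each member values are also given without the 10-week knockout-labelled replicate 1 or with the libraries of conflicting codes exchanged. Of 15 alveolar macrophage markers in the table none was at 0 in any library, with summed levels of 27420 to 48650 CPM in fresh and 20800 to 24410 CPM in cultured libraries. Replicates of every group differed by more than sampling noise (chi-square per degree of freedom 9.98 to 52.1).

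**Figure D1:**
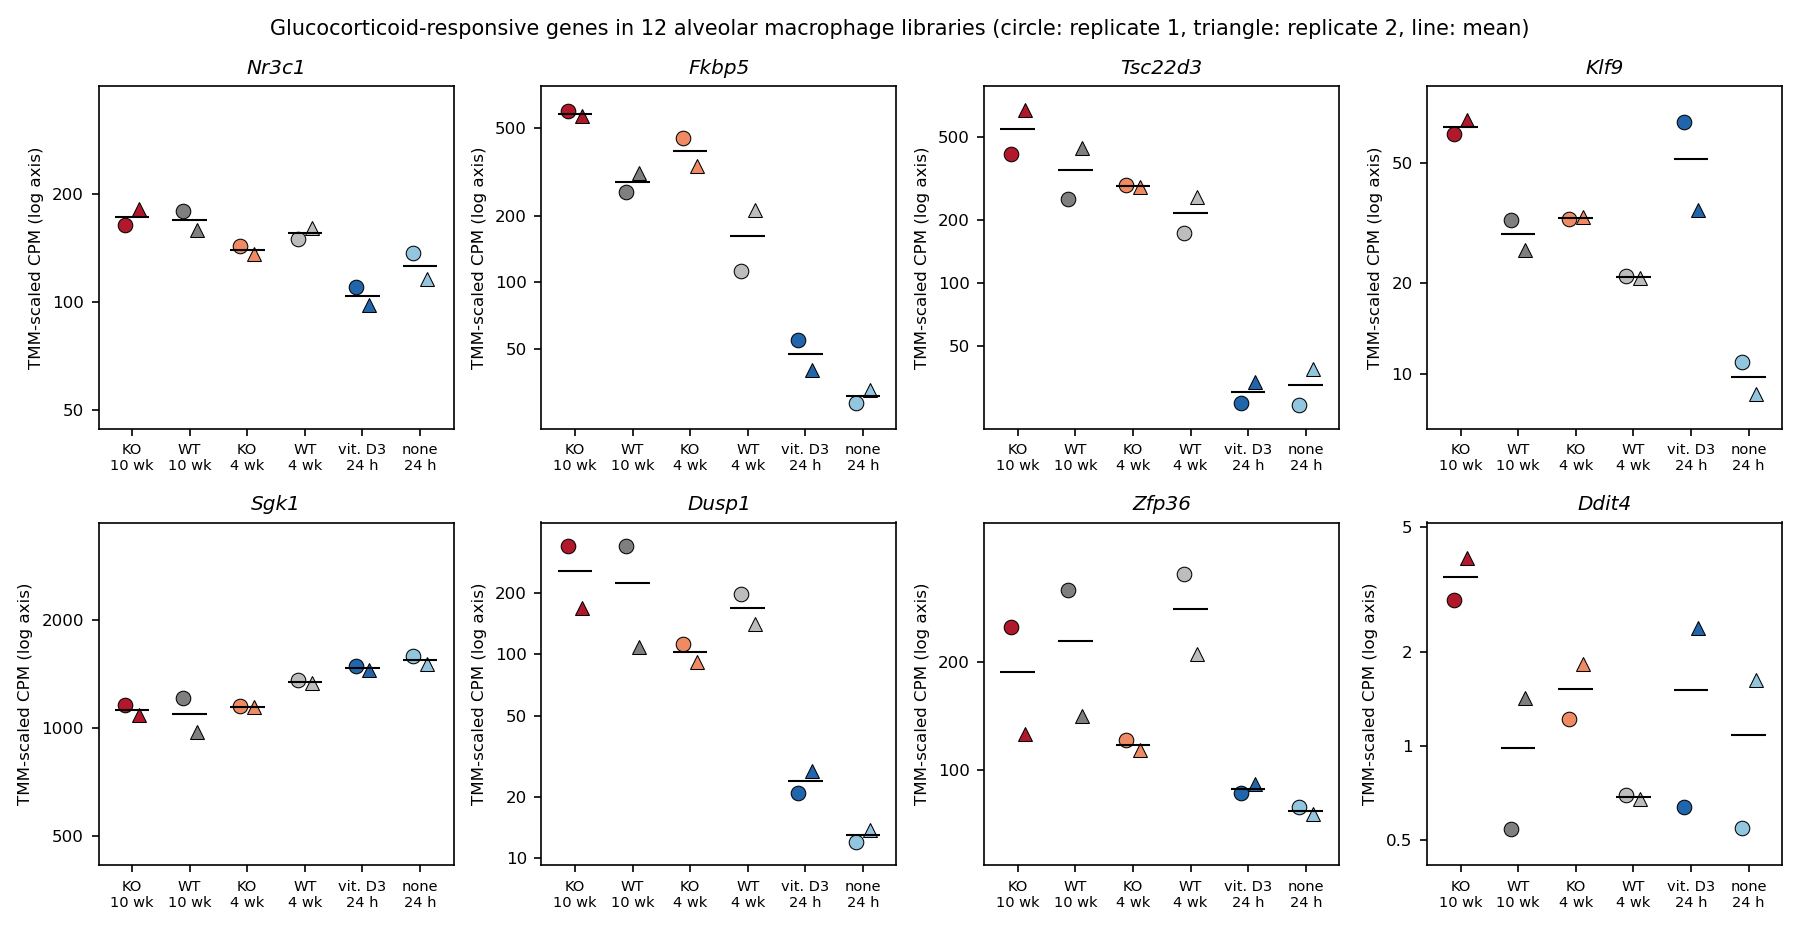
TMM-scaled CPM (log axis, 1 panel per gene) of the 8 genes in each library, by group; circles are replicate 1, triangles replicate 2 and lines group means. Fkbp5, Tsc22d3 and Dusp1 were low in all 4 cultured libraries, and Klf9 was at 68.3 and 34.9 CPM with vitamin D3, against 11 and 8.58 CPM without it.

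Fkbp5, Tsc22d3, Klf9 and Ddit4 had higher averages in the knockout-labelled libraries at both ages, Zfp36 had lower ones, and the receptor gene Nr3c1 and the kinase gene Sgk1 lay close to WT. The panel was assembled with the knockout difference known, so this contrast is given as a description with no test. Groups that do not overlap over both ages were found for Fkbp5 and Klf9 only, among 4.56% of all 12748 genes that passed the filter on low counts, as all 8 members did. By the edgeR test 0.996% of all genes were called over both ages, 0.11% at 10 weeks and 0.667% at 4 weeks. Groups of 2 did not overlap in 40.6% of all genes at 10 weeks and in 48.6% at 4 weeks. Nothing is read from these shares about the panel. The panel's median log2 fold change was 0.24 (all genes -0.0081).

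Nr3c1, the receptor, was at 163.2 and 180.9 CPM in 10-week knockout-labelled libraries, against 178.8 and 158.6 CPM in 10-week WT. At 4 weeks the values were 142.6 and 135.4 CPM in the knockout-labelled libraries, against 149.9 and 160.3 CPM in WT. Genotypes overlapped at 10 weeks, and at 4 weeks both knockout-labelled libraries were slightly lower. The log2 fold change over both ages was -0.07 ± 0.08 (SE), and the 10-week value of 0.027 turned to -0.011 with the conflicting libraries exchanged.

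Fkbp5 encodes the co-chaperone FKBP51, which binds Hsp90 in the receptor complex and is a classical readout of receptor activity. It was at 593.6 and 564.6 CPM in 10-week knockout-labelled libraries, against 257.1 and 312.3 CPM in 10-week WT. In 4-week cells they were 450.2 and 336.9 CPM in the knockout-labelled libraries, against 112.5 and 212.3 CPM in WT. All 4 knockout-labelled libraries were above all 4 WT libraries, and the 4-week WT replicates differed most from each other. Over both ages the level was 2.22-fold higher with a log2 fold change of 1.15 ± 0.18 (SE), 1.02 ± 0.25 at 10 weeks and 1.27 ± 0.26 at 4 weeks. Without the 10-week knockout-labelled replicate 1 it was 1.13 ± 0.20 over both ages. If the libraries with conflicting codes were exchanged it would be 0.66 ± 0.28 over both ages and 0.04 ± 0.40 at 10 weeks.

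Klf9, a zinc finger repressor that glucocorticoids induce in many cell types, was at 62.1 and 69 CPM in 10-week knockout-labelled libraries, against 32.5 and 25.7 CPM in 10-week WT. The 4-week values were 32.5 and 33.1 CPM in the knockout-labelled libraries, against 21.1 and 20.7 CPM in WT. The groups were apart at each age, while the lower 4-week knockout-labelled library was level with the higher 10-week WT library, at 32.5 CPM each. The log2 fold change was 0.91 ± 0.18 (SE) over both ages, 1.17 ± 0.25 at 10 weeks and 0.65 ± 0.25 at 4 weeks. Without the 10-week knockout-labelled replicate 1 the 10-week value was 1.24 ± 0.30, and with the conflicting libraries exchanged it was -0.00186 ± 0.42 (0.32 ± 0.30 over both ages).

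Tsc22d3 encodes GILZ, a leucine zipper protein that binds and restrains NF-kappa-B and AP-1. It was at 413.9 and 672.9 CPM in 10-week knockout-labelled libraries, against 251.1 and 443.6 CPM in 10-week WT. At 4 weeks the values were 293.6 and 288.6 CPM in the knockout-labelled libraries, against 172.6 and 259 CPM in WT. The 10-week groups overlapped, since replicate 2 of each genotype was the higher one, and within each replicate the knockout-labelled library was above WT, by log2 0.72 and 0.60 at 10 weeks. The log2 fold change over both ages was 0.54 ± 0.21 (SE), and 0.34 without 10-week knockout-labelled replicate 2. It was 0.69 without 10-week knockout-labelled replicate 1, and 0.59 ± 0.20 with the conflicting libraries exchanged.

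Dusp1, a phosphatase that switches off p38 and JNK kinases, and Zfp36, the mRNA decay protein tristetraprolin that limits cytokine mRNA, are induced by glucocorticoids and also by inflammatory and handling stimuli. Zfp36 was at 249.3 and 126.1 CPM in 10-week knockout-labelled libraries, against 316.8 and 140.8 CPM in 10-week WT. In 4-week cells they were 121.4 and 113.5 CPM in the knockout-labelled libraries, against 352 and 209.6 CPM in WT. The 4-week groups did not overlap and the 10-week groups did, with log2 fold changes of -0.28 ± 0.36 (SE) at 10 weeks and -1.26 ± 0.37 at 4 weeks. The 10-week value was -0.86 without the knockout-labelled replicate 1 and -0.75 without WT replicate 2, but 0.42 without WT replicate 1 and 0.12 without knockout-labelled replicate 2, so its direction depended on single libraries. With the conflicting libraries exchanged it was -1.08 ± 0.20. Over both ages the value was -0.77, -0.42 without 10-week WT replicate 1 and -1.17 ± 0.14 with the exchange. At 4 weeks it was -0.83 without WT replicate 1.

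Dusp1 was at 341.9 and 169.9 CPM in 10-week knockout-labelled libraries, against 342.3 and 108.8 CPM in 10-week WT. The 4-week values were 112.9 and 91.7 CPM in the knockout-labelled libraries, against 198.6 and 141.1 CPM in WT. At 10 weeks replicate 1 was above replicate 2 in both genotypes, 2.01-fold in the knockout-labelled pair and 3.15-fold in the WT pair, and Zfp36 was 1.98-fold and 2.25-fold higher there. At 10 weeks the replicate number goes with sex and with the series of library titles, which cannot be told apart. The Dusp1 log2 fold change over both ages was -0.27 ± 0.30 (SE), with 0.18 at 10 weeks and -0.73 at 4 weeks. With 1 library left out it ran from -0.57, without 10-week WT replicate 2, to 0.26, without 10-week WT replicate 1. With the conflicting libraries exchanged it was -1.01 ± 0.15 over both ages and -1.30 ± 0.22 at 10 weeks. The 10-week value was also negative without knockout-labelled replicate 1 (-0.41) or WT replicate 2 (-0.42), and was 1.24 without WT replicate 1.

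Sgk1, a serum- and glucocorticoid-induced kinase that acts on ion transport and survival, was at 1160 and 1086 CPM in 10-week knockout-labelled libraries, against 1212 and 976.8 CPM in 10-week WT, and at 4 weeks at 1149 and 1147 CPM, against 1357 and 1332 CPM in WT. The 10-week groups overlapped and the 4-week groups did not, and the log2 fold change over both ages was -0.10 ± 0.08 (SE). With the exchange it was -0.21 ± 0.07 over both ages, and the 10-week value of 0.037 turned to -0.20.

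Ddit4, an inhibitor of the growth kinase complex mTORC1 that hypoxia and amino acid stress also induce, was close to the detection limit. It was at 2.93 and 3.98 CPM in 10-week knockout-labelled libraries, against 0.54 and 1.43 CPM in 10-week WT. At 4 weeks the values were 1.22 and 1.82 CPM in the knockout-labelled libraries, against 0.70 and 0.68 CPM in WT. The log2 fold change over both ages was 1.49 ± 0.50 (SE), and the groups overlapped between ages. With the conflicting libraries exchanged it was 0.88 ± 0.62 over both ages, and the 10-week value was 0.63 ± 0.84 in place of 1.85.

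**Figure D2:**
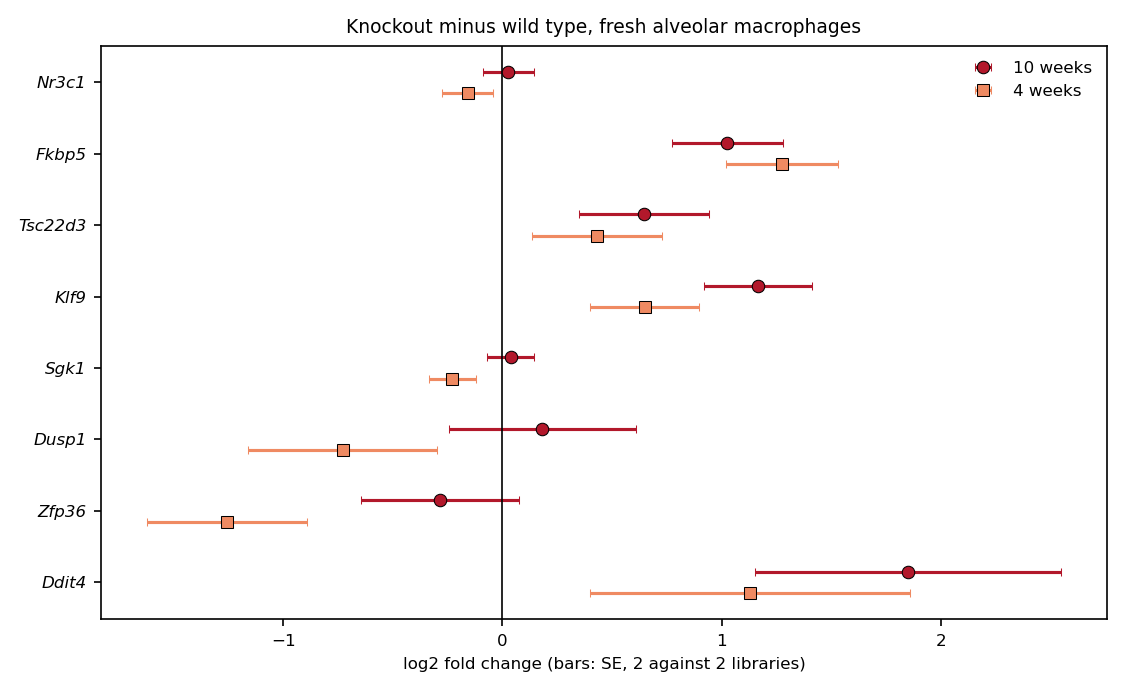
Log2 fold change of knockout-labelled over WT fresh libraries at 10 weeks (circles) and 4 weeks (squares), with bars of 1 SE, for each of the 8 genes. Fkbp5 lies at 1.02 and 1.27 at the 10 and 4 week ages, and Zfp36 at -0.28 and -1.26.

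Markers of other cells moved with genotype in the fresh libraries. The summed level of 7 dendritic cell markers was 18.3 to 23.3 CPM in the 4 knockout-labelled libraries, against 33.8 to 97.9 CPM in the 4 WT libraries. The 6 monocyte markers summed to 7.42 to 15.3 CPM in the knockout-labelled libraries, against 11.8 to 24.1 CPM in WT. The 5 erythroid markers summed to 48.2 to 53.1 CPM in 10-week knockout-labelled libraries, against 70.6 to 160.9 CPM in 10-week WT. At 4 weeks they summed to 347.8 to 642.7 CPM in the knockout-labelled libraries, against 1330 to 3148 CPM in WT. Over both ages 5 of 5 had negative values and 2 were called lower by edgeR. The 8 epithelial markers summed to 303.2 to 414.4 CPM in 10-week knockout-labelled libraries, against 180.6 to 221.5 CPM in 10-week WT, with 7 of 8 positive and 1 called higher. At 4 weeks they summed to 58.8 to 220 CPM in the knockout-labelled libraries, against 45.2 to 90.8 CPM in WT. The 15 alveolar macrophage markers summed to 33480 to 36910 CPM in 10-week knockout-labelled libraries, against 27420 to 28030 CPM in 10-week WT. At 4 weeks they summed to 36210 to 48650 CPM, against 31130 to 34100 CPM in WT. Of these 15, 9 had positive and 6 negative values over both ages, with a median log2 fold change of 0.14 and 0 called by edgeR. The 8 T cell markers summed to 206 to 237.9 CPM at 10 weeks, against 245.3 to 262.9 CPM in WT. At 4 weeks they summed to 133.1 to 142.6 CPM, against 188.1 to 219.9 CPM in WT, with 7 of 8 negative over both ages and 0 called. The part of these cells in the values above was not tested, and in bulk samples fewer cells of a type and less RNA per cell cannot be told apart.

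Among 26 tested genes of a list of 30 other glucocorticoid targets, 3 were called higher and 0 lower over both ages by the edgeR test, against 0.612% and 0.384% of all genes. The list's median log2 fold change was 0.09. The 3 genes, named after their values were seen, were Per1, Nfkbia and Anxa1. The list was chosen with earlier results of these data known, so its count and p-values are a description and not independent support. Per1, a circadian repressor with a glucocorticoid response element, was at 349.7 and 254.6 CPM in 10-week knockout-labelled libraries, against 201.2 and 199.4 CPM in 10-week WT. In 4-week cells they were 230.1 and 207.1 CPM in the knockout-labelled libraries, against 124.2 and 150.2 CPM in WT. All 4 knockout-labelled libraries were above all 4 WT libraries, with a log2 change of 0.63 ± 0.10 (edgeR adjusted p = 0.0184). With the conflicting libraries exchanged, 10-week Per1 would be at 254.6 and 199.4 CPM in the knockout group, against 201.2 and 349.7 CPM in WT. Nfkbia, the NF-kappa-B inhibitor, had a log2 change of 0.68 ± 0.10 (edgeR adjusted p = 0.0105) and Anxa1, the anti-inflammatory annexin A1, of 0.33 ± 0.07 (edgeR adjusted p = 0.0429). With the exchange, 10-week Nfkbia would be at 114.8 and 103.3 CPM in the knockout group, against 95.1 and 145.5 CPM in WT. Anxa1 would be at 484.5 and 377.4 CPM, against 425.2 and 465.1 CPM. Over all genes edgeR called 29 over both ages after the exchange, against 127 before it. With 1 library left out in turn, Per1 passed in 7 of 12 fits, Nfkbia in 9 and Anxa1 in 4, and the adjusted p reached 0.0938 for Per1 and 0.0692 for Nfkbia without 4-week knockout-labelled replicate 1, and 0.201 for Anxa1 without replicate 2 of that group.

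In the opposite direction, 14 of 15 immediate early genes had negative values over both ages, in a list also chosen with earlier results known. Of the 15, 4 were called lower and 0 higher, against 0.384% and 0.612% of all genes. They were Btg2 with a log2 change of -0.91 (edgeR adjusted p = 0.00637), Jund with -0.55 (edgeR adjusted p = 0.0212), Jun with -0.91 (edgeR adjusted p = 0.0219) and Egr1 with -2.16 (edgeR adjusted p = 0.0379), also named after their values were seen. Jun and Jund are AP-1 subunits, Egr1 is a zinc finger factor of the early response to stimuli, and Btg2 is an antiproliferative gene. With the conflicting libraries exchanged, 10-week Btg2 would be at 83.2 and 139.9 CPM in the knockout group, against 168 and 107.6 CPM in WT. Jund would be at 265.8 and 384.4 CPM, against 367.5 and 283.8 CPM. Jun would be at 56.2 and 103 CPM, against 131.2 and 83.1 CPM, and Egr1 at 9.04 and 12.58 CPM, against 55.4 and 15.85 CPM. Without 4-week knockout-labelled replicate 1 all 4 missed the threshold, with edgeR adjusted p from 0.0543 for Btg2 to 0.173 for Egr1. Over both ages 1668 of 12748 genes had an unadjusted edgeR p under 0.05, and DESeq2 called 363 of 12249. Of 14 tested chaperones that hold or load the receptor 0 were called by edgeR over both ages, with 8 at an unadjusted p under 0.05 and 2 called by DESeq2. At 10 weeks 13 of them had negative values, with a median log2 fold change of -0.48 there and -0.0018 at 4 weeks. At 10 weeks edgeR called 0 of the 14, with 9 at an unadjusted p under 0.05, limma 0 and DESeq2 5. There 1244 of 12748 genes had such an unadjusted p, limma called 15 of 10631 and DESeq2 137 of 12584. Of 12 coregulators and of 9 genes of steroid supply edgeR, DESeq2 and limma each called 0 over both ages, with an unadjusted edgeR p under 0.05 for 1 and 2 of them.

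The difference between the knockout effects at 10 and at 4 weeks does not enter the rule, and it was tested as the genotype by age interaction. By edgeR 0 of 8 members passed, where 0.188% of all genes did. An unadjusted p under 0.05 was found for 0 members, where 1103 of 12748 genes had one. DESeq2 called 0 too, as did limma over the 7 members in the deposited log2 table. The lowest p was that of Zfp36, with an interaction of 0.97 ± 0.51 on the log2 scale (edgeR adjusted p = 0.641). For Fkbp5 it was -0.25 ± 0.35 (edgeR adjusted p = 0.901). The SE of the interaction was 0.15 to 1.01 across the panel.

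At 10 weeks against 4 weeks, 7 of the 8 members had positive values in knockout-labelled cells and 6 in WT, and Klf9 in knockout-labelled cells passed the test. Markers of other cells moved with age too. In knockout-labelled libraries the erythroid markers summed to 48.2 to 53.1 CPM at 10 weeks, against 347.8 to 642.7 CPM at 4 weeks, with 3 of 5 called lower. In WT they summed to 70.6 to 160.9 CPM at 10 weeks, against 1330 to 3148 CPM at 4 weeks, with 4 of 5 called lower. The epithelial markers summed to 303.2 to 414.4 CPM at 10 weeks, against 58.8 to 220 CPM at 4 weeks, in knockout-labelled libraries, with 2 of 8 called higher. In WT they summed to 180.6 to 221.5 CPM at 10 weeks, against 45.2 to 90.8 CPM at 4 weeks, with 1 of 8 called higher. The part of these cells in the members' age differences was not tested. In knockout-labelled libraries Klf9 was at 62.1 and 69 CPM at 10 weeks, against 32.5 and 33.1 CPM at 4 weeks. It was higher with a log2 change of 0.999 ± 0.24 (edgeR adjusted p = 0.0257), the only called member where 9.73% of all genes were called. Klf9 missed the threshold when any 1 of the 4 libraries compared was left out (edgeR adjusted p 0.0673 to 0.157), at log2 fold changes of 0.92 to 1.08. It also missed without both 10-week female libraries (edgeR adjusted p = 0.121), and with the conflicting libraries exchanged it was 0.53 ± 0.43 (edgeR adjusted p = 0.515). Library titles run in a lower-numbered and a higher-numbered series. Within the higher-numbered one, which holds 1 of the 10-week knockout-labelled libraries and both 4-week ones, the log2 difference was 1.05. The lower-numbered series holds no 4-week libraries.

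Dusp1 was at 341.9 and 169.9 CPM at 10 weeks, against 112.9 and 91.7 CPM at 4 weeks, in knockout-labelled libraries, with a log2 change of 1.32 ± 0.44 (edgeR adjusted p = 0.0793). Tsc22d3 was at 413.9 and 672.9 CPM at 10 weeks, against 293.6 and 288.6 CPM at 4 weeks, with a log2 change of 0.90 ± 0.30 (edgeR adjusted p = 0.082). When only those groups were fitted both passed (edgeR adjusted p = 0.0223 for Dusp1 and 0.0274 for Tsc22d3). Neither pair of groups overlapped, while 57.3% of all genes had groups that do not overlap in this comparison. Without 10-week replicate 1 the Dusp1 difference was 0.73.

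In WT cells 0 of 8 members were called between the ages by edgeR, where 2.11% of all genes were. DESeq2 called 0 and limma 0 of 7. By edgeR 3 had an unadjusted p under 0.05, where 2367 of all 12748 genes had one. Fkbp5 was at 257.1 and 312.3 CPM at 10 weeks, against 112.5 and 212.3 CPM at 4 weeks, with a log2 change of 0.81 ± 0.25 (edgeR adjusted p = 0.118). Tsc22d3 had a log2 change of 0.68 ± 0.30 (edgeR adjusted p = 0.244). Sgk1 was at 1212 and 976.8 CPM at 10 weeks, against 1357 and 1332 CPM at 4 weeks, with a log2 change of -0.30 ± 0.11 (edgeR adjusted p = 0.169).

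Among 26 other glucocorticoid targets 2 were called higher and 1 lower at 10 weeks in knockout-labelled cells. That comparison called 9.73% of all genes, the share to set beside this count and those of the other lists below. In WT, where 2.11% of all genes were called, edgeR called 0 of the 26. An unadjusted edgeR p under 0.05 was found for 4, where 2367 of all 12748 genes had one. There DESeq2 called 2 and limma 0, against 666 of 12249 and 286 of 10631 genes. Errfi1, an inhibitor of epidermal growth factor receptor signalling, rose by 1.35 ± 0.19 on the log2 scale (edgeR adjusted p = 0.00227). Angptl4, an inhibitor of lipoprotein lipase, fell by 0.88 ± 0.14 on the log2 scale (edgeR adjusted p = 0.00385). Sult1a1, a sulfotransferase, was at 1.95 and 3.71 CPM at 10 weeks, against 0.39 and 0.42 CPM at 4 weeks (log2 fold change 2.77 ± 0.70, edgeR adjusted p = 0.0312). In WT the drug and steroid exporter gene Abcb1a was at 7.93 and 4.27 CPM at 10 weeks, against 0.84 and 0.68 CPM at 4 weeks (log2 fold change 3.03 ± 0.40, edgeR adjusted p = 0.00373). The chaperones Dnaja1 and Dnajb1 rose by 1.16 ± 0.17 and 0.62 ± 0.14 on the log2 scale in WT (edgeR adjusted p = 0.00542 and 0.0432). In knockout-labelled cells the coactivator Ncoa1 rose by 0.79 ± 0.19 (edgeR adjusted p = 0.0217), and 3 of 15 immediate early genes rose, namely Jund, Nr4a1 and Junb. With 1 library left out in turn, Errfi1, Angptl4 and Abcb1a passed in 12 of 12 fits, Ncoa1 in 10, Dnaja1, Jund and Nr4a1 in 9, Sult1a1 in 8, Junb in 7 and Dnajb1 in 6. The edgeR adjusted p reached 0.0595 for Dnaja1 without 4-week WT replicate 1 and 0.307 for Dnajb1 without 10-week WT replicate 1. It reached 0.18 for Sult1a1 and 0.206 for Ncoa1 without 4-week knockout-labelled replicate 2, 0.269 for Nr4a1 and 0.277 for Junb without 10-week knockout-labelled replicate 1, and 0.088 for Jund without 4-week knockout-labelled replicate 2.

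Klf9 was 5.25-fold higher with vitamin D3 in cultured WT cells, 1 called member of 8 where 10.6% of all genes were called. Klf9 was at 68.3 and 34.9 CPM with vitamin D3, against 11 and 8.58 CPM without it. Both treated libraries were above both untreated ones, and the treated replicates differed 1.95-fold from each other. The log2 fold change was 2.39 ± 0.27 (edgeR adjusted p = 0.000188), in a comparison that called 5% of all genes higher and 5.63% lower. It passed in all 12 fits that left out 1 library, with log2 fold changes of 1.82 to 2.79 and an adjusted p of 0.00211 at most. Within the lower-numbered and the higher-numbered title series, with 1 library against 1 each, the log2 difference was 2.53 and 1.91. The treated and untreated libraries of the lower-numbered series carry the same WT number and those of the other series different ones.

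Fkbp5 was at 54.7 and 40 CPM with vitamin D3, against 28.3 and 32.5 CPM without it. The groups did not overlap, as in 48.9% of all genes, and the log2 fold change of 0.64 ± 0.26 missed the threshold (edgeR adjusted p = 0.163). Dusp1 was at 20.9 and 26.8 CPM with vitamin D3, against 12 and 13.8 CPM without it, with a log2 change of 0.89 ± 0.48 (edgeR adjusted p = 0.305). It passed with the replicate number as a block (edgeR adjusted p = 0.0104), when only the cultured groups were fitted (edgeR adjusted p = 0.0416), with the conflicting 10-week libraries exchanged (edgeR adjusted p = 0.0426) and without both 10-week female libraries (edgeR adjusted p = 0.0225). In the deposited log2 table it did not (limma adjusted p = 0.248). Nr3c1 was at 110 and 97.7 CPM with vitamin D3, against 136.4 and 115.7 CPM without it, with a log2 change of -0.28 ± 0.12 (edgeR adjusted p = 0.17). Tsc22d3 and Ddit4 had overlapping groups, Sgk1 a log2 fold change of -0.08 ± 0.11 and Zfp36 of 0.20 ± 0.37.

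In the steroid supply list 1 of 9 genes was called higher with vitamin D3 and 2 lower, where 5% of all genes were called higher and 5.63% lower. Hsd11b1, the enzyme that regenerates active glucocorticoid from its inert keto form inside cells, rose 7.96-fold with vitamin D3. It was at 26.6 and 39.1 CPM with vitamin D3, against 3.67 and 4.62 CPM without it, and at 0.97 to 3.51 CPM in the 8 fresh libraries. The log2 fold change was 2.99 ± 0.30 (edgeR adjusted p = 0.000104), and it passed in all 12 fits that left out 1 library. In the same list Abcb1a fell by 1.43 ± 0.36 on the log2 scale (edgeR adjusted p = 0.0241) and the membrane heme-binding protein gene Pgrmc1 fell by 0.34 ± 0.10 (edgeR adjusted p = 0.0484), and 6 of 9 did not pass. With 1 library left out in turn Abcb1a passed in 9 of 12 fits and Pgrmc1 in 1, and the edgeR adjusted p reached 0.163 for Abcb1a without untreated replicate 1 and 0.376 for Pgrmc1 without vitamin D3 replicate 1.

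Of 26 other glucocorticoid targets 4 were higher and 3 lower with vitamin D3, where 5% of all genes were called higher and 5.63% lower. Tgm2, a transglutaminase of macrophages, was at 2533 and 1749 CPM with vitamin D3, against 523.6 and 436.3 CPM without it (log2 fold change 2.16 ± 0.21, edgeR adjusted p = 8.62e-05). Pdk4, a kinase that restrains pyruvate oxidation, was at 17.9 and 10.5 CPM with vitamin D3, against 2.41 and 2.51 CPM without it (log2 fold change 2.54 ± 0.32, edgeR adjusted p = 0.000451). Glul, glutamine synthetase, fell by 0.90 ± 0.13 on the log2 scale (edgeR adjusted p = 0.000834). Of the 26 genes 9 had positive and 17 negative values, with a median log2 fold change of -0.17. Cell markers moved with vitamin D3 too. The 6 monocyte markers summed to 38.6 to 45.9 CPM with it, against 24.4 to 28.4 CPM without it. Of the 5 tested, 3 had negative values and 0 were called. Of 15 alveolar macrophage markers 3 were called higher and 4 lower. The part of such cells in the values with vitamin D3 was not tested.

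The counts of the other lists stand beside the same 5% of all genes called higher with vitamin D3 and 5.63% lower. Of 23 tested genes of the same families 0 rose and 4 fell, among them the kinase Sgk3 by 0.79 ± 0.14 on the log2 scale (edgeR adjusted p = 0.00351). The Krüppel-like factors Klf4 and Klf2 fell by 1.35 ± 0.26 and 1.13 ± 0.31 on the log2 scale (edgeR adjusted p = 0.00647 and 0.0382). Without vitamin D3 replicate 1 both missed the threshold (edgeR adjusted p = 0.0798 and 0.238). The corepressor Nrip1 rose by 1.28 ± 0.23 (edgeR adjusted p = 0.00384) and the coactivator Ncoa3 fell by 0.39 ± 0.11 (edgeR adjusted p = 0.0384), which passed in 5 of 12 fits with 1 library left out (edgeR adjusted p = 0.258 without vitamin D3 replicate 1). Of 15 immediate early genes 3 rose and 1 fell, with Jund at 1.04 ± 0.13 and Nr4a1 at -1.79 ± 0.30 on the log2 scale (edgeR adjusted p = 0.000419 and 0.00238). Of 14 genes of hypoxia and amino acid stress 3 rose and 0 fell, led by Vegfa, the vascular growth factor. It was at 41.1 and 43.5 CPM with vitamin D3, against 0.49 and 1.3 CPM without it (log2 fold change 5.64 ± 0.39, edgeR adjusted p = 1.59e-05).

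For Dusp1, Tsc22d3, Fkbp5 and Zfp36 the largest of the 8 contrasts computed was that between untreated culture and fresh WT cells. In untreated cells after 24 h, 5 of the 7 tested members were lower, 1 was higher and 1 did not pass, where 45.8% of all genes were called, 22.3% lower and 23.5% higher. The panel's median log2 fold change was -1.52, against -0.02 for all genes. Leaving the lung, the medium and the time in culture cannot be told apart here. Fkbp5 is given here without a test, since the fresh WT libraries entered the rule.

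Dusp1 had the largest difference, at 12 and 13.8 CPM in untreated culture, against 108.8 to 342.3 CPM in the 4 fresh WT libraries. It was 15.3-fold lower, with a log2 change of -3.93 ± 0.48 (edgeR adjusted p = 4.03e-05). Tsc22d3 was at 26.2 and 38.8 CPM in untreated culture, against 172.6 to 443.6 CPM in fresh WT, 8.47-fold lower with a log2 change of -3.08 ± 0.31 (edgeR adjusted p = 8.93e-06). In neither gene did the groups overlap, as in 56% of all genes.

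Fkbp5 was at 28.3 and 32.5 CPM in untreated culture, against 112.5 to 312.3 CPM in fresh WT, 7.08-fold lower with a log2 fold change of -2.82 ± 0.26 (SE). Zfp36 was at 78.6 and 75.4 CPM in untreated culture, against 140.8 to 352 CPM in fresh WT (log2 fold change -1.72 ± 0.34, edgeR adjusted p = 0.00154). Klf9 was at 11 and 8.58 CPM in untreated culture, against 20.7 to 32.5 CPM in fresh WT (log2 fold change -1.32 ± 0.24, edgeR adjusted p = 0.000846). All 3 had every cultured library below every fresh WT library, and with vitamin D3 Klf9 was above the fresh WT range while Fkbp5 stayed below it.

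Nr3c1 itself was at 136.4 and 115.7 CPM in untreated culture, against 149.9 to 178.8 CPM in fresh WT. Its log2 fold change of -0.36 ± 0.10 passed (edgeR adjusted p = 0.0131), but without untreated replicate 2 it was -0.24 and did not (edgeR adjusted p = 0.159). Sgk1 was at 1590 and 1513 CPM in untreated culture, against 976.8 to 1357 CPM in fresh WT, with a log2 change of 0.36 ± 0.09 (edgeR adjusted p = 0.00803). In the deposited log2 table, which has no scaling factor between libraries, the median of all genes in this comparison was -0.25, and Sgk1 was at 0.07 and did not pass (limma adjusted p = 0.567). Ddit4 was at 0.55 and 1.62 CPM in untreated culture, against 0.54 to 1.43 CPM in fresh WT, and the groups overlapped.

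Within each title series these differences had the same sign. In the lower-numbered series, with 1 library against 1, the log2 differences were -4.72 for Dusp1, -3.21 for Tsc22d3, -3.14 for Fkbp5 and -2.00 for Zfp36. In the higher-numbered series, with 1 against 3, they were -3.31 for Dusp1, -2.77 for Tsc22d3, -2.55 for Fkbp5 and -1.52 for Zfp36. Markers of other cells moved with culture too. The 5 erythroid markers summed to 0.60 to 1.86 CPM in untreated culture, with 3 of 5 at 0, against 70.6 to 3148 CPM in fresh WT. The 8 epithelial markers summed to 13.6 to 14.5 CPM, against 45.2 to 221.5 CPM in fresh WT, and the 7 dendritic markers to 18.9 to 22.4 CPM, against 33.8 to 97.9 CPM. T cell markers summed to 235.3 to 273 CPM, against 188.1 to 262.9 CPM in fresh WT, and monocyte markers to 24.4 to 28.4 CPM, against 11.8 to 24.1 CPM. These sums hide that 6 of 8 T cell markers had negative values, with a median log2 fold change of -1.4. Of 5 tested monocyte markers 3 were negative, with a median of -0.31, and in each list 1 was called higher and 1 lower. Of 15 alveolar macrophage markers 5 were called higher and 7 lower. The part of these cells in the panel's values was not tested.

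**Figure D3:**
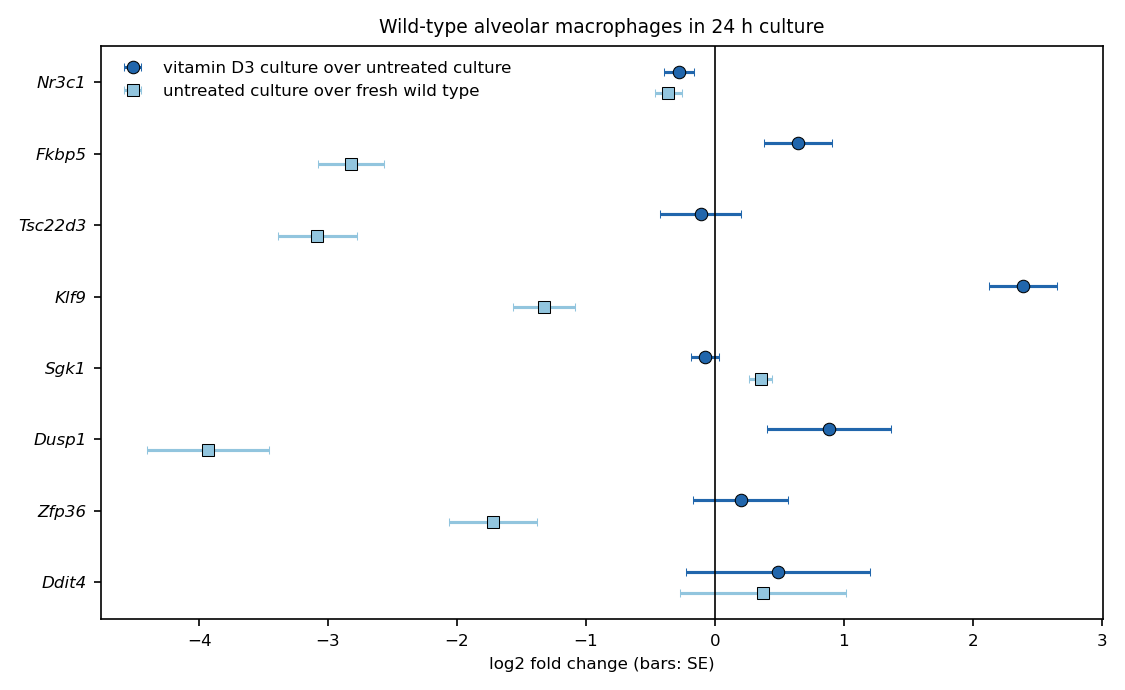
Log2 fold changes with bars of 1 SE for the 8 genes, for vitamin D3 over untreated culture (circles) and untreated culture over fresh WT (squares). Klf9 is at 2.39 with vitamin D3 and at -1.32 for culture, while Dusp1, Tsc22d3 and Fkbp5 lie at -3.93, -3.08 and -2.82 for culture.

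Genes of the wider pathway were called in both directions in culture, where 23.5% of all genes were called higher and 22.3% lower. Of 26 other glucocorticoid targets 7 were higher and 11 lower, with a median log2 fold change of -0.43. Angptl4 was at 24.4 and 20.3 CPM in untreated culture, against 133.4 to 176.3 CPM in fresh WT (log2 fold change -2.83 ± 0.14, edgeR adjusted p = 5.72e-08). Per1 was at 32.1 and 34.8 CPM in untreated culture, against 124.2 to 201.2 CPM in fresh WT (log2 fold change -2.31 ± 0.14, edgeR adjusted p = 2.21e-07). Cebpb, a transcription factor of the acute phase response, fell by 1.52 ± 0.10 on the log2 scale (edgeR adjusted p = 4.09e-07).

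The counts of the other lists stand beside the same shares of all genes, 23.5% called higher and 22.3% lower, and nothing is read from them. Of the 14 chaperones 2 rose and 6 fell, with Bag1 at 0.64 ± 0.10, Hspa8 at -0.79 ± 0.14 and Dnajb1 at -0.66 ± 0.13 on the log2 scale (edgeR adjusted p = 0.000299, 0.000636 and 0.0011). Of the 12 coregulators 1 rose and 6 fell, among them Nrip1 by 1.63 ± 0.21 (edgeR adjusted p = 6.09e-05). Of the 9 steroid supply genes 4 rose and 0 fell, among them Hsd11b1 by 1.35 ± 0.29 and H6pd, which makes its cofactor, by 0.76 ± 0.18 (edgeR adjusted p = 0.00248 and 0.00543). Without untreated replicate 1 H6pd was at 0.40 and did not pass (edgeR adjusted p = 0.135). Of the 15 immediate early genes 11 fell and 2 rose, with Btg2 and Ier2 falling by 1.69 ± 0.16 and 1.68 ± 0.16 (edgeR adjusted p = 5.95e-06 and 6.45e-06). Atf3, a stress-induced factor, rose by 3.92 ± 0.20 (edgeR adjusted p = 5.22e-08). Of 23 family members 4 rose and 14 fell, with Dusp3 rising by 1.08 ± 0.09 and Dusp5 falling by 1.58 ± 0.16 (edgeR adjusted p = 2.24e-06 and 1.04e-05). Of 14 genes of hypoxia and amino acid stress 7 rose and 2 fell, with Asns, asparagine synthetase, and the glucose transporter Slc2a1 rising by 2.18 ± 0.39 and 1.54 ± 0.22 (edgeR adjusted p = 0.000745 and 0.000133).

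The members' patterns over the 12 libraries were compared by the root mean square difference of log2(CPM + 1), each gene centred on its own mean, over 9307 genes with a mean of at least 5 CPM. Fkbp5, whose own centred values had a root mean square of 1.56, was most like Per1 (0.42), Cytip (0.45), Tsc22d3 (0.46) and Socs2 (0.47). Tsc22d3 was most like Socs2 and Tgm1 (0.39 each), Dusp1 most like the immediate early genes Fos and Fosb (0.46 and 0.51), and Zfp36 most like Ier2 and Btg2 (0.30 each). Klf9 was nearest to Marveld1 and Mmp19 (0.39 and 0.41), against an own value of 0.87. Nr3c1 and Sgk1 varied little (0.27 and 0.21) and were nearest to Baz2a and Nfatc1 (0.07 each) and to Dram1 and Eif5b (0.08 each). Ddit4, added to the comparison although its mean is under 5 CPM, was nearest to Narf and Nr6a1 (0.38 each). Among pairs of members Fkbp5 and Tsc22d3 were 0.46 apart, while Fkbp5 and Sgk1 were 1.76 apart. These are descriptions over libraries that share groups and culture, and they say nothing of shared control.

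**Figure D4:**
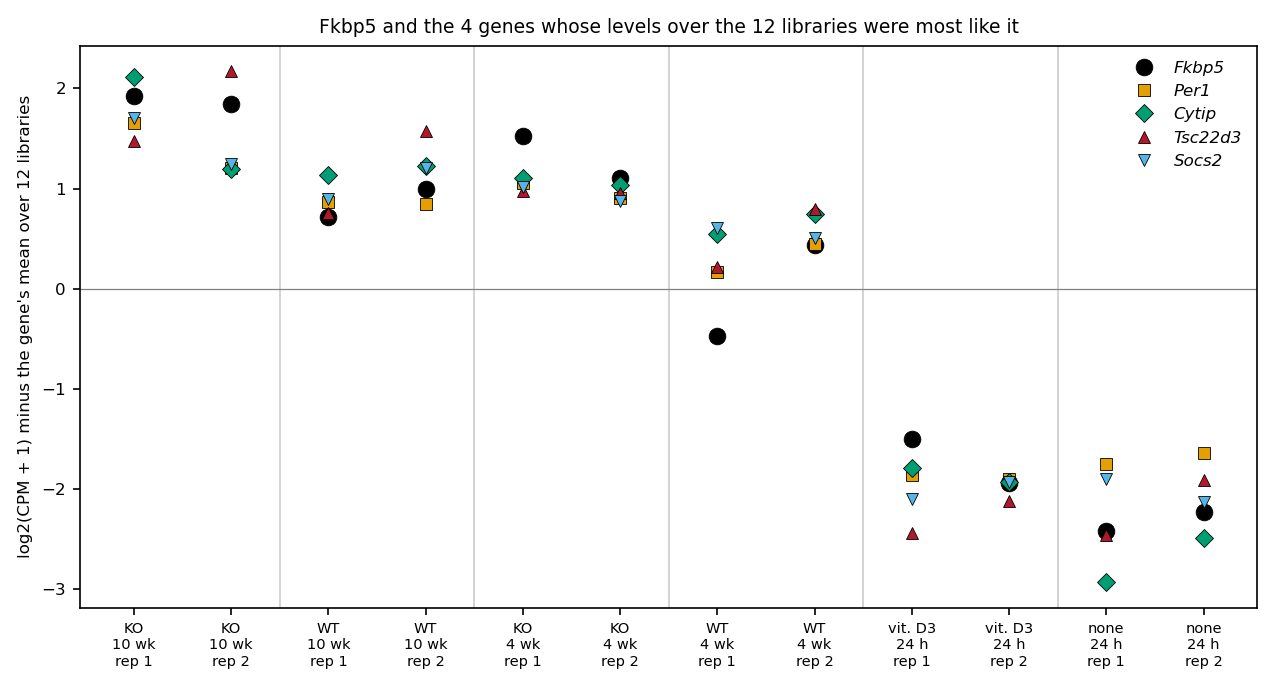
Centred log2(CPM + 1) of Fkbp5 and the 4 genes most like it, Per1, Cytip, Tsc22d3 and Socs2, in each of the 12 libraries. All 5 genes lie below their own mean in the 4 cultured libraries, and Fkbp5 also does in 4-week WT replicate 1, where it was at 112.5 CPM.

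The order of the 6 group means differed from gene to gene. Fkbp5 was highest to lowest in 10-week knockout-labelled, 4-week knockout-labelled, 10-week WT, 4-week WT, vitamin D3 culture and untreated culture, with means of 579.1, 393.5, 284.7, 162.4, 47.4 and 30.4 CPM and no overlap between neighbours. For Tsc22d3 10-week WT overlapped both its neighbours in the order, 10-week and 4-week knockout-labelled, and the cultured groups overlapped each other at means of 30 and 32.5 CPM with and without vitamin D3. Klf9 had 10-week knockout-labelled and vitamin D3 culture as its highest groups, at means of 65.6 and 51.6 CPM, which overlapped. Sgk1 ran the other way, highest in untreated culture at a mean of 1552 CPM and lowest in 10-week WT at 1094 CPM, and its 3 lowest groups overlapped. Nr3c1 had the smallest spread of means after Sgk1, highest in 10-week knockout-labelled cells at 172.1 CPM and lowest in vitamin D3 culture at 103.9 CPM, and the 3 highest groups overlapped. Dusp1 and Zfp36 were lowest in untreated culture at means of 12.9 and 77 CPM. Dusp1 was highest in 10-week knockout-labelled cells at 255.9 CPM and Zfp36 in 4-week WT at 280.8 CPM, and each overlapped the next group. Ddit4 was highest in 10-week knockout-labelled cells at 3.45 CPM, apart from all other groups, which overlapped their neighbours.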

How the data were processed

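RNA-seq of alveolar macrophages was analysed in 12 libraries, 2 in each of 6 groups. The authors deposited raw counts per gene for 23413 genes, and a table of log2(CPM + 1) for 10631 genes, in which libraries are scaled by their totals alone. The submitters' processing notes name TopHat2, edgeR and build mm9. How reads were counted, with which annotation and whether by strand, is not given in the sources, so genes that overlap or share reads with a copy may be miscounted. Per the labels' protocols, RNeasy Micro and KAPA HyperPrep kits were used.

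Counts were tested in R 4.3.3 with edgeR 4.0.16 and its quasi-likelihood test, with TMM scaling, filterByExpr (minimum count 10, minimum total 15), a prior count of 0.125, and all 12 libraries in 1 fit with 1 coefficient per group (6 residual degrees of freedom). It left 12748 genes, and p-values had Benjamini-Hochberg adjustment over them (threshold 0.05) in each of 8 contrasts. No permutation test was used, since with 2 libraries against 2 its lowest two-sided p is 0.333. The code was tested on simulated counts. The members and all lists were chosen with earlier results of these data known. From each list the up to 3 tested genes with the smallest p past the threshold were named per contrast. Knockout contrasts of the members carry no test, because the choice of members used them. Promoter windows came from a RefSeq table, and coordinates of other genes are not given because the counts are on another build. Alternatives were DESeq2 1.42.0, its size factors, no filter, a strict filter (5 CPM in 2 libraries), the compared groups alone, a replicate block, the title series, exchange of the libraries with conflicting codes, omission of the 10-week female libraries, omission of each library, and limma 3.58.1 on the deposited log2 table.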

Additional observations from a re-analysis of the deposited data

How the results depend on the processing

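No member called by edgeR changed direction in an alternative tried, counts of calls moved as follows, and the cause of each change was not tested. The counts stand beside those of all genes. Between ages in knockout-labelled cells edgeR called 1240 of 12748 genes in the main fit and 2059 of 17620 with no filter. It called 1421 of 12038 with only the groups compared. Of 12748 genes it called 1446 with the replicate block, 1260 with the title series and 821 after exchange. The count of members called between ages in the knockout-labelled cells was 1 in the main fit, 5 with no filter, 4 with only the groups compared, 4 with the replicate block, 3 with the title series, 2 without the female libraries (Dusp1 and Zfp36, not Klf9) and 0 after exchange, and 0 to 2 with 1 library left out. Between ages in WT it was 0, against 4 with no filter, 1 with the replicate block, 1 with the title series and 1 after exchange, and 0 to 1 with 1 library left out. With vitamin D3 it was 1, against 3 with no filter, 2 with only the groups compared, 2 with the replicate block, 2 after exchange and 2 without the female libraries, with Dusp1 among the calls in each. Between ages in WT edgeR called 1223 of 17620 genes with no filter. Of 12748 it called 474 with the replicate block, 286 with the title series and 331 after exchange. With vitamin D3 it called 1989 of 17620 genes with no filter and 644 of 11627 with only the groups compared. Of 12748 it called 1548 with the replicate block and 1178 after exchange. For the interaction the count of members was 0, against 2 with no filter, where 24 of 12748 and 392 of 17620 genes were called. In culture it was 6, and 5 to 6 with 1 library left out.

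No label states that a replicate number marks a shared animal or day in every group. At 10 weeks and in culture the number goes with the title series, and the first treated and untreated cultures carry the same WT number, so pairing there is possible. The correlation of same-numbered deviations was 0.166 at 10 weeks, -0.176 at 4 weeks and 0.361 in culture. The crossed block at 4 weeks, chosen after seeing the data, called 5 members between ages in knockout-labelled cells, 2 in WT and 3 with vitamin D3. Of all 12748 genes it called 1801, 797 and 1837 in these contrasts. After exchange the Fkbp5 knockout difference over both ages was 0.66 instead of 1.15 (0.96 to 1.42 with 1 library left out), and the 10-week median of the members -0.0062 instead of 0.41.

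Among the tested contrasts, values that changed sign, none of them called, were the interaction of Klf9, Dusp1 and Ddit4 after exchange (-0.65, -0.57 and -0.50), Dusp1 between ages in WT with the title series (-0.040), Zfp36 there after exchange and without the female libraries (0.012 and 0.18), Ddit4 there without the female libraries (-0.33), Sgk1 between ages in knockout-labelled cells without the female libraries (0.016), and Ddit4 in culture after exchange (-0.056). With 1 library left out the interaction ran from -0.79 to 0.13 for Fkbp5 and -0.18 to 0.68 for Tsc22d3. Sign changes of the knockout differences, which carry no test, were all at 10 weeks except that of Dusp1 over both ages (-0.57 to 0.26 with 1 library left out). At 10 weeks exchange gave -1.30 for Dusp1, -0.20 for Sgk1, -0.011 for Nr3c1 and -0.00186 for Klf9, and omission of the female libraries -0.0046, -0.066 and -0.13 for Dusp1, Sgk1 and Nr3c1. With 1 library left out they ran from -0.42 to 1.24 for Dusp1, -0.86 to 0.42 for Zfp36, -0.059 to 0.12 for Nr3c1 and -0.11 to 0.20 for Sgk1. Between ages in WT the range was -0.64 to 1.02 for Dusp1, -0.99 to 0.18 for Zfp36 and -0.33 to 1.05 for Ddit4, and in knockout-labelled cells -0.080 to 0.016 for Sgk1. With vitamin D3 it was -0.37 to 0.19 for Tsc22d3 and -0.70 to 1.42 for Ddit4, and in culture -0.55 to 1.004 for Ddit4.

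Over all genes the number called also moved. DESeq2 called 363 over both ages of the knockout contrast (main 127), 137 at 10 weeks (14), 253 at 4 weeks (85), 88 for the interaction (24) and 666 between ages in WT (269). No filter called 791, 503, 690, 392 and 1223 in those contrasts and 2059 between ages in knockout-labelled cells (main 1240). Ddit4 rests on few counts, so its differences are limited by depth.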
